A study of Mus musculus with 4 samples.

Results

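Chemokines are small secreted proteins that draw migrating cells toward their source, and fibroblasts are among the cells that make them. The genes described here are 10 chemokine genes, taken by symbol from the 36846 gene symbols in the deposited transcript table, with the counts of all transcripts of a symbol summed. RNA sequencing was done on mouse embryonic fibroblasts (MEFs) of the C57BL/6 strain, in 2 wild-type (WT) libraries and 2 libraries from Dnmt3l knockout (Dnmt3l-KO) cells. Both genotypes came from intercrosses of Dnmt3l heterozygotes, from embryos of day 13.5 to 14.5, and were at passage 4. The labels name no treatment or stimulus, and the cells grew in DMEM with 10% fetal bovine serum. The Dnmt3l protein lacks enzyme activity of its own and assists the enzymes that set new DNA methylation, and the study asked which fibroblast genes differ between donor cells for nuclear transfer.

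The family is grouped by the spacing of the first cysteines of the protein. Ccl2, Ccl7, Ccl9 and Ccl20 are CC chemokines, Cxcl1, Cxcl5, Cxcl10, Cxcl12 and Cxcl16 are CXC chemokines, and Cx3cl1 is the CX3C chemokine. Ccl2 and Ccl7 draw monocytes through the receptor Ccr2, and Cxcl1 and Cxcl5 draw neutrophils through Cxcr2. Cxcl12 is the homeostatic ligand of Cxcr4 and of the scavenging receptor Ackr3, while many of the others are induced by inflammatory signals through NF-kappaB or, for Cxcl10, by interferon.

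Library totals ran from 40681328 to 51465395 counts. Dnmt3l itself had 6 counts and 1 count in WT and 0 in both Dnmt3l-KO libraries, too few to check the genotype labels. All 12 fibroblast markers were detected, at a summed level of 10761 to 16083 CPM (counts per library, scaled to a common library total) in single libraries, highest in Dnmt3l-KO replicate 2. The summed level was 11.1 to 15.0 CPM for 15 macrophage and leukocyte markers, 6.75 to 20.4 CPM for 8 endothelial markers and 41.7 to 55.0 CPM for 8 epithelial markers. Aif1 of the first, Cldn5 of the second and Krt5 and Krt14 of the third had 0 counts in all 4 libraries. Most of the epithelial sum came from Krt19, at 37.0 and 47.8 CPM in the WT replicates and 48.0 and 37.6 CPM in those of Dnmt3l-KO. Most of the endothelial sum came from Kdr, at 6.71 and 8.36 CPM in WT and 17.5 and 4.81 CPM in Dnmt3l-KO. Lyz2 was the highest of the leukocyte list, at 5.01 and 2.95 CPM in WT and 5.07 and 4.47 CPM in Dnmt3l-KO. In RNA from whole cultures, fewer cells of a type cannot be told apart from less RNA per cell. Whether the replicates came from separate embryos is not in the labels, so the p-values cover only the spread among these libraries, part of which may be technical.

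Cxcl12, Ccl7 and Ccl2 were the abundant chemokines of these fibroblasts, and no chemokine gene passed the test between the genotypes. Per length of transcript, as FPKM (fragments scaled to transcript length and library total), these 3 genes made up 77.2% to 94.0% of the summed level of the 10 genes, which was 153.1 to 224.3 FPKM in single libraries. By mean FPKM over the 4 libraries Cxcl12 lay above 94.3% of the genes tested, Ccl7 above 91.1%, Ccl2 above 90.6% and Cxcl5 above 78.3%. Cx3cl1 and Cxcl1 followed above 41.6% and 34.2%, and Cxcl16, Cxcl10, Ccl20 and Ccl9 lay above 23.6%, 20.0%, 17.6% and 15.1%. In that order the ranges of neighbouring genes over the 4 libraries overlapped at every step but 1. The step without overlap was from Ccl2, at 33.6 to 59.9 FPKM, down to Cxcl5, at 3.99 to 32.4 FPKM.

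**Figure D1:**
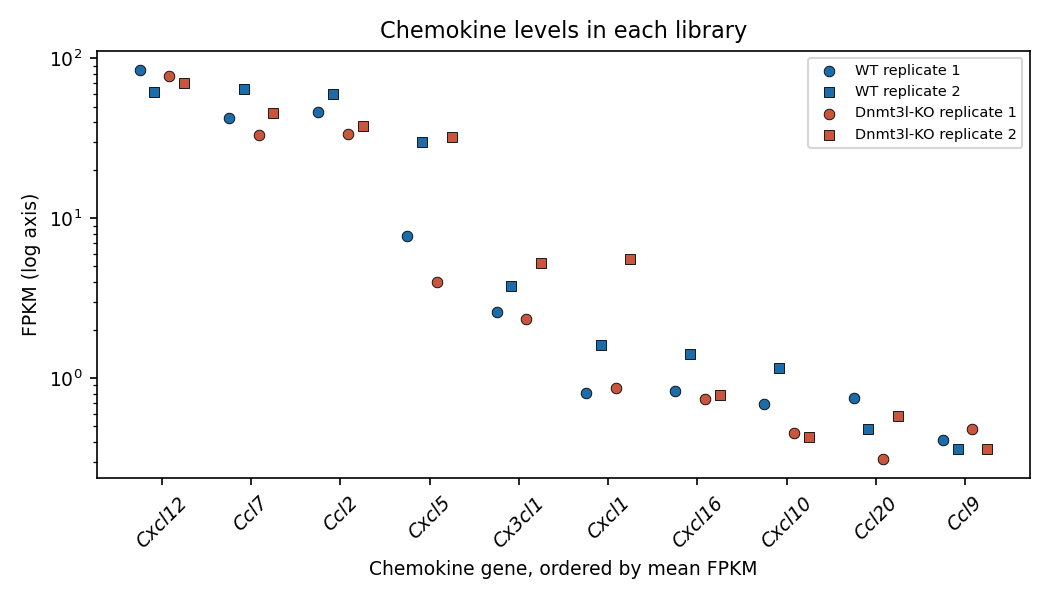
FPKM of the 10 chemokine genes on a log axis, ordered by mean, with 1 point per library (circles replicate 1, squares replicate 2, blue WT, red Dnmt3l-KO). Cxcl12, Ccl7 and Ccl2 lay at 33.0 to 84.4 FPKM in every library, and the points of Cxcl5 and Cxcl1 were spread the furthest.

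Between the genotypes, 0 of the 10 genes passed edgeR's quasi-likelihood test at an adjusted p under 0.05, where 0.0203% of the 14760 genes tested did, and each had an adjusted p of 0.999. DESeq2's Wald test also called 0 of the 10, against 0.205% of the genes it tested. At an unadjusted p under 0.05, edgeR had 2 of the 10, Ccl2 and Cxcl10, both lower in Dnmt3l-KO, where 1.81% of all genes were lower at that level. In 4 of the 10, Ccl2, Ccl7, Cxcl10 and Cxcl16, both Dnmt3l-KO libraries lay below both WT libraries in CPM, as they did in 16.5% of all genes. In 0 of the 10 both lay above, against 16.2% of all genes. Fold changes were negative in 7 of the 10, against 48.7% of all genes. Their median log2 fold change was -0.26, against 0.01 over all genes tested. The median was -0.56 without Dnmt3l-KO replicate 2, -0.14 without Dnmt3l-KO replicate 1 and -0.060 under a stricter filter that removed Cxcl10 and Ccl20. With 2 libraries against 2, an exact two-sided permutation test of a single gene cannot go below p = 0.333.

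**Figure D2:**
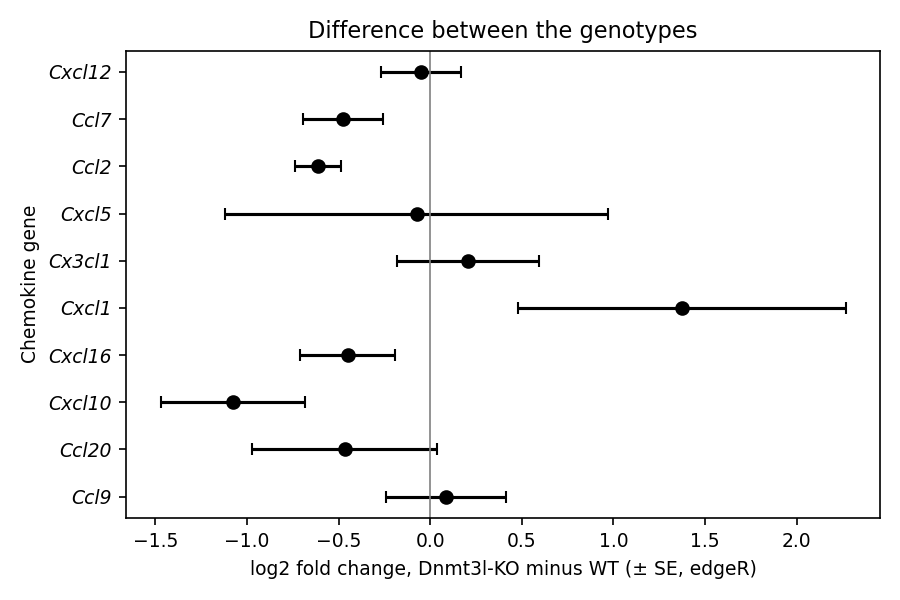
Log2 fold change of each chemokine gene, Dnmt3l-KO minus WT, with its standard error from edgeR. Ccl2 had the smallest error, at -0.61 ± 0.12, and Cxcl5 the widest, at -0.07 ± 1.04.

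The monocyte attractants Ccl2 and Ccl7 had similar levels and differences of the same sign. Ccl2 (chromosome 11, 82035577 to 82037452, GRCm38) had 43.3 and 51.4 CPM in the WT replicates and 29.9 and 32.0 CPM in those of Dnmt3l-KO. Neither Dnmt3l-KO library reached the lower WT library, and the means were 47.3 ± 5.71 CPM for WT and 31.0 ± 1.51 CPM for Dnmt3l-KO (SD, n = 2 each). Ccl2 had a log2 fold change of -0.61 ± 0.12 (SE), a 1.53-fold lower fitted level, with an unadjusted p of 0.0042 and an adjusted p of 0.999 in edgeR. DESeq2 gave the smallest adjusted p of any chemokine gene in any setting tried, 0.150 for Ccl2. In the authors' deposited table the single Ccl2 transcript had a log2 fold change of -0.55 ± 0.20 and an adjusted p of 0.378.

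Ccl7 (chromosome 11, 82045712 to 82047525) lies 8.26 kilobases from Ccl2. It had 45.3 and 62.3 CPM in the WT replicates and 33.3 and 44.2 CPM in those of Dnmt3l-KO. The groups were apart by little, since the lower WT value and the higher Dnmt3l-KO value nearly met, and on the FPKM scale, at 42.6 and 64.2 FPKM in the WT replicates and 33.0 and 45.8 FPKM in those of Dnmt3l-KO, they overlapped. In edgeR Ccl7 stood at -0.47 ± 0.22 on the log2 scale (SE, adjusted p = 0.999). The neighbouring CC chemokine genes Ccl11, Ccl12, Ccl8 and Ccl1, named for their position after their values had been seen, had 0 to 12 counts in any library. Ccl2 and Ccl7 were thus the expressed genes of this group of 6, which spans 144.2 kilobases.

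The neutrophil attractants Cxcl5 and Cxcl1 varied the most of the 10 between libraries. The highest library was 8.12-fold above the lowest for Cxcl5 and 6.96-fold for Cxcl1 in FPKM, against 1.34-fold to 2.67-fold for the other 8. Cxcl5 (chromosome 5, 90759298 to 90761625) had 14.8 and 52.6 CPM in the WT replicates and 7.29 and 56.8 CPM in those of Dnmt3l-KO. Replicate 2 was 3.54-fold above replicate 1 in WT and 7.79-fold above it in Dnmt3l-KO, and the genotypes overlapped, with a log2 fold change of -0.07 ± 1.04 (SE). The difference within WT was larger in absolute size than that of 99.9% of all genes tested, as was the difference within Dnmt3l-KO. Without WT replicate 2 the log2 fold change of Cxcl5 was 1.11, and without Dnmt3l-KO replicate 1 it was 0.75.

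Cxcl1 (chromosome 5, 90891245 to 90893121) had 0.892 and 1.65 CPM in the WT replicates and 0.922 and 5.69 CPM in those of Dnmt3l-KO. Dnmt3l-KO replicate 2 stood apart, with 238 counts, while the other libraries had 42 to 69. Its log2 fold change, at 1.37 ± 0.89 (SE, edgeR, adjusted p = 0.999), had the largest absolute size of the 10 and was set by that library. Without it the value was -0.46. Cxcl5 was the only 1 of the 10 genes that was at least 2-fold apart between the replicates, in the same direction, in both genotypes, where 0.196% of all genes were. Both replicates numbered 2 were above those numbered 1 in both genotypes in 5 of the 10, Ccl2, Ccl7, Cxcl1, Cxcl5 and Cx3cl1, against 27.6% of all genes. The labels do not say that a replicate number marks a shared litter, batch or day.

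**Figure D3:**
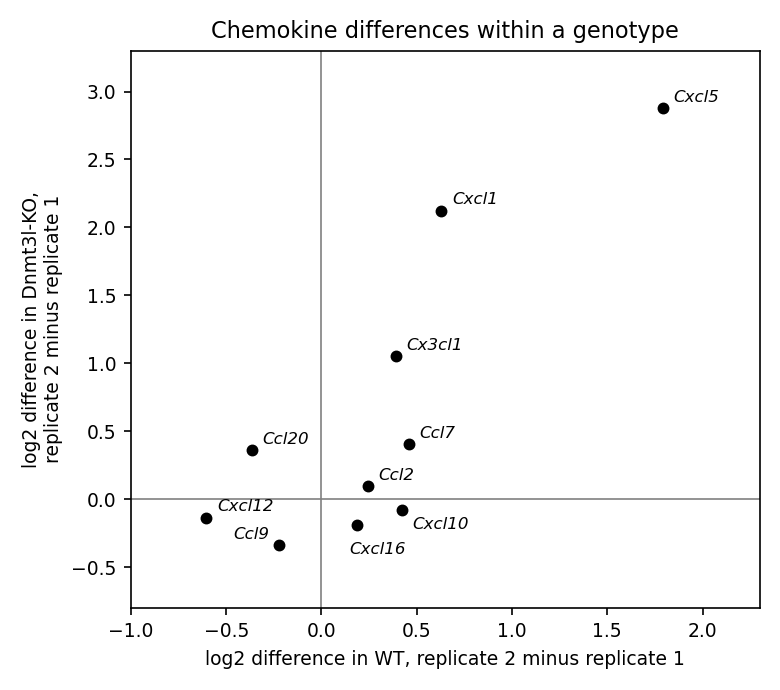
Log2 difference of CPM (0.5 added) between replicate 2 and replicate 1 in WT (horizontal) and in Dnmt3l-KO (vertical), 1 point per chemokine gene. Cxcl5 lies at 1.79 and 2.88 and Cxcl1 at 0.63 and 2.12, while Cxcl12 and Ccl9 lie below 0 on both axes.

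Cxcl5 and Cxcl1 belong to a row of CXC chemokine genes on chromosome 5 (90759298 to 90905938, GRCm38), and the other genes of that row were looked up after these values had been seen. The row holds, in order, Cxcl5, Ppbp, Pf4, Cxcl3, Cxcl15, Cxcl1 and Cxcl2. All 7 had a higher CPM in replicate 2 than in replicate 1 of both genotypes, against 27.6% of all genes tested. However, Pf4 and Cxcl2 had 0 to 8 counts in any library and were not tested. Ppbp had 668 counts in each Dnmt3l-KO library, so its order there came from the library scaling alone. Cxcl3, another neutrophil attractant, had 12 and 39 counts in the WT replicates and 4 and 74 counts in those of Dnmt3l-KO. Cxcl15, known as lungkine, had 2 and 11 counts in the WT replicates and 3 and 58 counts in those of Dnmt3l-KO. Ppbp, a platelet chemokine precursor, had 11.8 and 25.9 CPM in the WT replicates and 13.4 and 16.0 CPM in those of Dnmt3l-KO, so it was not highest in the same library as Cxcl1. The summed level of the 7 genes was 27.9 and 81.6 CPM in WT and 21.8 and 81.9 CPM in Dnmt3l-KO, most of it from Cxcl5 and Ppbp. Fibroblast markers also differed between the Dnmt3l-KO libraries, with a median log2 difference of 0.92, replicate 2 minus replicate 1, against -0.09 in WT. As examples chosen after their values had been seen, Pdgfra, a receptor of fibroblasts, had 23.4 and 38.6 CPM in the WT replicates and 17.2 and 65.4 CPM in those of Dnmt3l-KO, and Col3a1, a fibrillar collagen, had 471 and 368 CPM in the WT replicates and 190.2 and 895 CPM in those of Dnmt3l-KO. Pdgfra and Col3a1 had the largest differences within Dnmt3l-KO after Lum, at 1.90 and 2.23 on the log2 scale. Over the 12 markers this difference ran from -0.10 for Vim, the only marker lower in replicate 2, to 3.42 for Lum. The part of such differences in those of Cxcl5 and Cxcl1 was not tested.

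The interferon-inducible chemokine Cxcl10 was low. Cxcl10 (chromosome 5, 92346638 to 92348889) had 42 and 57 counts in the WT replicates and 28 and 21 counts in those of Dnmt3l-KO, or 0.892 and 1.37 CPM in the WT replicates and 0.561 and 0.502 CPM in those of Dnmt3l-KO. The Dnmt3l-KO libraries were the lowest of the 4. Its log2 fold change of -1.08 ± 0.39 (SE) had an unadjusted p of 0.040 and an adjusted p of 0.999 in edgeR, and counting error alone is large at these depths. Over its 11 other settings it stayed negative, from -1.36 to -0.40, with an adjusted p of 0.433 or more.

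Promoter windows, 250 bases before to 50 after the transcript start, were held in RefSeq's GRCm38.p6 for 6 of the 10 genes, Ccl9, Ccl20, Cx3cl1, Cxcl1, Cxcl10 and Cxcl12. They are shown for Cxcl1, which varied the most between libraries among these, for Cxcl10, which was low, and for the abundant Cxcl12. Capitals mark matches to a form of the site bound by NF-kappaB, the letters GGG and TTCC with 3 bases between them, and to the core of the interferon-stimulated response element, TTTC and TTTC with 2 bases between them, each on either strand.
Cxcl1 (chr5:90890995-90891294, plus strand): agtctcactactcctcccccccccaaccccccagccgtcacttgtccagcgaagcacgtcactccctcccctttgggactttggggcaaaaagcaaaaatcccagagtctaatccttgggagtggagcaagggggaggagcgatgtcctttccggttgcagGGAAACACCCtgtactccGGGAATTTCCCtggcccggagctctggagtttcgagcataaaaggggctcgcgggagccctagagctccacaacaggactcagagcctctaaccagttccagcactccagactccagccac
Cxcl10 (chr5:92348840-92349139, minus strand): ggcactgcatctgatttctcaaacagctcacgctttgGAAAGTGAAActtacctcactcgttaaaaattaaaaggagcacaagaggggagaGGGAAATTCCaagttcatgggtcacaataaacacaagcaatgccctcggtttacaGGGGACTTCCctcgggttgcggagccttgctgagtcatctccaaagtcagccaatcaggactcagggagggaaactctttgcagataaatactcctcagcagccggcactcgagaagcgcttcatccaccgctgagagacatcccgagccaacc
Cxcl12 (chr6:117168285-117168584, plus strand): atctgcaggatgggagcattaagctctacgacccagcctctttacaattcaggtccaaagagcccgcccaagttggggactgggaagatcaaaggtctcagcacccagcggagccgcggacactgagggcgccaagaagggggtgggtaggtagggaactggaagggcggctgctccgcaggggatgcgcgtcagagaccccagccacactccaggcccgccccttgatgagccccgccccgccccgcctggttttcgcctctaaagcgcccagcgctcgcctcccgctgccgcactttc
The Cxcl1 window held 3 matches to the first motif, GGAAACACCC from 89 bases before the start and GGGAATTTCC and GGAATTTCCC from 71 and 70 bases before it, which are opposite strands of overlapping letters. The Cxcl10 window held 2, GGGAAATTCC from 159 and GGGGACTTCC from 104 bases before the start, and 1 match to the second motif, GAAAGTGAAA from 213 bases before it. The Cxcl12 window held neither. Among the windows not shown, those of Ccl9 and Ccl20 held 1 match each to the first motif and that of Cx3cl1 held none. Of all 32851 windows in the table, 5.56% held the first motif and 3.44% the second. These letters describe the windows and show no binding in these cells.

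Cxcl12, which holds Cxcr4-bearing cells near stroma, was the highest of the 10 in mean FPKM and its level overlapped between the genotypes. Cxcl12 (chromosome 6, 117168535 to 117181368) had 237 and 156 CPM in the WT replicates and 198 and 181 CPM in those of Dnmt3l-KO, with means of 196 ± 57.4 CPM for WT and 189.5 ± 12.6 CPM for Dnmt3l-KO (SD, n = 2 each). Both Dnmt3l-KO values fell between the WT values. The difference was -0.05 ± 0.22 on the log2 scale (SE, edgeR, adjusted p = 0.999), and its sign turned in 4 of 12 other settings. On the FPKM scale Ccl7 exceeded Cxcl12 in WT replicate 2 alone, at 64.2 against 61.6 FPKM.

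The table held 3 transcript variants of Cxcl12, which share their first exons and differ at the 3′ end. Variant 1, which encodes the alpha form, had 58.5 and 43.7 FPKM in WT and 57.7 and 48.7 FPKM in Dnmt3l-KO. It made up 69.3% and 71.0% of the gene's FPKM in WT and 74.6% and 69.2% in Dnmt3l-KO. Variant 2, the beta form, made up 25.3% and 24.0% in WT and 20.5% and 24.7% in Dnmt3l-KO. Variant 3, the gamma form, made up 4.87% to 6.10% over the 4 libraries. The shares of variants 2 and 3 overlapped between the genotypes, as did those of variant 1. Fitted as separate features in edgeR, the 3 variants had log2 fold changes of 0.00 ± 0.23, -0.18 ± 0.25 and 0.03 ± 0.28 (SE), none of which passed.

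**Figure D4:**
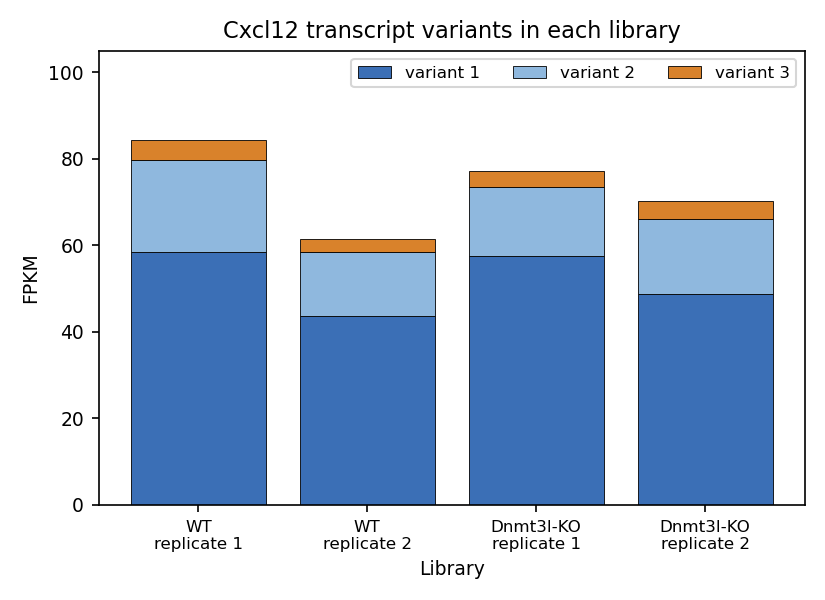
FPKM of the Cxcl12 transcript variants, stacked, in each library. Variant 1 is the largest part in every library, and the summed height runs from 61.6 FPKM in WT replicate 2 to 84.4 FPKM in WT replicate 1.

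Cx3cl1 and Cxcl16 are made as membrane proteins on a mucin-like stalk and are released by the proteases Adam10 and Adam17. Cx3cl1 (chromosome 8, 94772180 to 94782427), or fractalkine, had 9.49 and 12.6 CPM in the WT replicates and 8.12 and 17.4 CPM in those of Dnmt3l-KO. Dnmt3l-KO replicate 2 was the highest and replicate 1 the lowest, so the WT libraries lay between them. On the log2 scale the genotypes differed by 0.21 ± 0.39 (SE, edgeR, adjusted p = 0.999), and it was -0.44 without Dnmt3l-KO replicate 2.

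Cxcl16 (chromosome 11, 70454389 to 70459984) had 2.34 and 2.73 CPM in the WT replicates and 2.0 and 1.70 CPM in those of Dnmt3l-KO, with both Dnmt3l-KO libraries below both WT libraries and a log2 difference of -0.45 ± 0.26 (SE, edgeR, adjusted p = 0.999). Its counts were divided unevenly over 5 transcripts. The RefSeq coding transcript had 109 and 11 counts in the WT replicates and 100 and 32 in those of Dnmt3l-KO. A pair of predicted non-coding transcripts had 0 counts each in both replicates numbered 1, 95 and 6 counts in WT replicate 2, and 4 and 35 counts in Dnmt3l-KO replicate 2. The sums over all 5 transcripts, 110 and 114 counts in the WT replicates and 100 and 71 counts in those of Dnmt3l-KO, were closer together than those of the coding transcript. Fitted on its own in edgeR, the coding transcript had a log2 fold change of 0.10 ± 1.17 (SE), opposite in sign to that of the sum. No source used here gives the way in which the authors divided reads between transcripts.

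Adam10 had 145 and 132 CPM in the WT replicates and 154 and 149 CPM in those of Dnmt3l-KO, and Adam17 had 53.7 and 51.4 CPM in the WT replicates and 51.1 and 56.2 CPM in those of Dnmt3l-KO. Dpp4, a membrane peptidase that trims Cxcl12, had 0.552 and 0.455 CPM in the WT replicates and 0.601 and 0.670 CPM in those of Dnmt3l-KO. The log2 fold changes were 0.13 ± 0.10, 0.03 ± 0.10 and 0.33 ± 0.38 (SE, edgeR), and none passed.

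Ccl9 and Ccl20 were the lowest of the 10 by mean FPKM. Ccl9 (chromosome 11, 83572917 to 83578636), a ligand of Ccr1, had 67 and 48 counts in the WT replicates and 79 and 48 counts in those of Dnmt3l-KO. Both of its replicates numbered 2 had 48 counts, and the genotypes overlapped at a log2 fold change of 0.09 ± 0.33 (SE). Ccl20 (chromosome 1, 83116766 to 83119167), the ligand of Ccr6, had 33 and 18 counts in the WT replicates and 15 and 22 counts in those of Dnmt3l-KO. WT replicate 1 was the highest, and 21 of its counts were given to transcript variant 2, which had 3, 1 and 0 counts in the other libraries. For Ccl20 the log2 difference was -0.47 ± 0.51 (SE, edgeR, adjusted p = 0.999 for both genes), and its groups overlapped. The Ccl20 transcript with 11 to 22 counts in each library, fitted on its own in edgeR, had a log2 fold change of 0.44 ± 0.98 (SE), opposite in sign to that of the gene.

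Most receptors for these ligands were close to undetected in the fibroblasts themselves. Ccr2, Ccr6 and Cxcr3, the receptors of Ccl2, Ccl20 and Cxcl10, had 0 counts in all 4 libraries, which allows a level of up to 0.0601 to 0.0719 CPM at 3 counts per library. Ccr1 had 7 and 1 counts in the WT replicates and 3 and 2 counts in those of Dnmt3l-KO. Of 23 receptor genes, 5 passed the expression filter and 0 passed the test in either direction. Ackr3, which takes up Cxcl12, was the highest per length, at 8.10 and 8.26 FPKM in the WT replicates and 6.10 and 9.32 FPKM in those of Dnmt3l-KO. Cxcr4, the signalling receptor of Cxcl12, had 0.155 and 0.144 FPKM in the WT replicates and 0.272 and 0.150 FPKM in those of Dnmt3l-KO. Cxcr2 had 0.488 and 0.743 CPM in the WT replicates and 0.401 and 0.359 CPM in those of Dnmt3l-KO, and Cx3cr1 had 0.297 and 0.264 CPM in the WT replicates and 0.200 and 0.239 CPM in those of Dnmt3l-KO. Cxcr6, the receptor of Cxcl16, had 4.97 and 5.97 CPM in the WT replicates and 3.89 and 3.16 CPM in those of Dnmt3l-KO. Its log2 fold change was -0.63 ± 0.22 (SE). Both Dnmt3l-KO libraries lay below both WT libraries in Cxcr6, Cxcr2 and Cx3cr1, 3 of the 5 tested, against 16.5% of all genes. Cxcr2 had 15 to 31 counts in each library and Cx3cr1 had 10 to 14, so both rest on few counts. Cxcr6 was the only receptor at an unadjusted p under 0.05 (edgeR, adjusted p = 0.999), where 1.81% of all genes were lower. The receptors' median log2 fold change was -0.35, which is the value of Cx3cr1.

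Of the 28 remaining chemokine genes 8 passed the filter and 0 passed the test in either direction, with a median log2 fold change of 0.29. Cxcl14, which many fibroblasts make, was the most abundant of them, at 55.3 and 49.6 CPM in the WT replicates and 57.8 and 72.7 CPM in those of Dnmt3l-KO, and had a log2 fold change of 0.31 ± 0.14 (SE). Cxcl15 had one of 2.23 ± 1.52, set by the 58 counts of Dnmt3l-KO replicate 2, and Ccl17, a ligand of Ccr4, one of 0.52 ± 0.38. Ppbp had one of -0.36 ± 0.38 (SE, edgeR, adjusted p = 0.999 for all 4 genes).

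All 31 genes of the NF-kappaB list were tested and 0 passed in either direction, with 0 at an unadjusted p under 0.05 and a median log2 fold change of -0.04. Rela and Nfkb1 make up the main NF-kappaB dimer, and Nfkbia is its inhibitor and its target; these 3 were named after their values had been seen. Rela had 50.7 and 48.4 CPM in the WT replicates and 58.1 and 49.9 CPM in those of Dnmt3l-KO, and Nfkb1 had 41.4 and 40.6 CPM in the WT replicates and 39.5 and 47.3 CPM in those of Dnmt3l-KO. Nfkbia had 18.4 and 22.8 CPM in the WT replicates and 18.6 and 20.1 CPM in those of Dnmt3l-KO, and the genotypes overlapped in each of the 3. The genes of the list with the smallest p were Ikbkg, a subunit of the IkappaB kinase (-0.21 ± 0.10), and the adaptor Traf1 (-0.88 ± 0.42). Next were the inhibitor Nfkbib (0.26 ± 0.13) and the ubiquitin ligase Birc2 (-0.32 ± 0.16), all given as log2 fold changes with SE. Traf1 was low, with 25 and 20 counts in the WT replicates and 13 and 12 counts in those of Dnmt3l-KO.

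Of 24 genes in the list of cytokines that induce chemokines and their receptors 15 passed the filter and 0 passed the test in either direction, with a median log2 fold change of 0.09. Il1b, Il17a, Osm, Ifnb1 and Ifng had 0 counts in all 4 libraries and Tnf had 0 to 5 counts in any. Other cytokines of the list were expressed, and Lif, of the interleukin 6 family and named after its values had been seen, had 10.1 and 10.1 CPM in the WT replicates and 9.12 and 9.74 CPM in those of Dnmt3l-KO. Csf1, the macrophage growth factor, named likewise, had 313 and 390.4 CPM in the WT replicates and 519 and 279.7 CPM in those of Dnmt3l-KO, and at 68.7 to 121.6 FPKM it was in the range of Cxcl12 or above it. The interferon-gamma receptor chain Ifngr1 had 33.4 and 31.4 CPM in the WT replicates and 28.7 and 26.9 CPM in those of Dnmt3l-KO (-0.22 ± 0.10, log2 with SE), and Tnfrsf1a, the main receptor of TNF, had 61.3 and 70.4 CPM in the WT replicates and 69.5 and 97.0 CPM in those of Dnmt3l-KO (0.34 ± 0.19). Ifngr2 had a log2 fold change of 0.20 ± 0.17 and Il17ra, a receptor chain of interleukin 17, one of 0.11 ± 0.12 (SE, edgeR).

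Of 18 interferon response genes 15 were tested and 0 passed in either direction. Fold changes were negative in 14, against 48.7% of all genes, with a median log2 fold change of -0.24. In 2 of the 15 both Dnmt3l-KO libraries lay below both WT libraries, against 16.5% of all genes. Against the mean of the WT libraries, the list's median log2 difference was -0.39 in Dnmt3l-KO replicate 1 and 0.05 in Dnmt3l-KO replicate 2. In 13 of the 15, replicate 2 was above replicate 1 in both genotypes, as in 27.6% of all genes. Cxcl10 differed from that pattern, since its replicate 2 was the higher in WT and the lower in Dnmt3l-KO. The smallest p belonged to Oasl2 (-1.03 ± 0.59) and the deubiquitinase Usp18 (-0.69 ± 0.43), given as log2 fold changes with SE. Next were the RNA sensor Ifih1 (-0.27 ± 0.21) and the GTPase Gbp2 (-0.24 ± 0.23). Each of these had an adjusted p of 0.999 in edgeR. Oasl2 was low, with 12 and 18 counts in the WT replicates and 6 and 9 counts in those of Dnmt3l-KO.

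Genes of chemokine processing and of message decay leaned toward positive fold changes without passing the test. Of 13 genes of chemokine processing and message decay 12 were tested, 11 with a positive fold change, against 51.3% of all genes, and 0 passed in either direction, at a median log2 fold change of 0.14. In 7 of the 12 both Dnmt3l-KO libraries lay above both WT libraries, as they did in 16.2% of all genes. The fibroblast markers also had positive fold changes in 11 of 12, at a median of 0.16, and the cytokine list in 11 of 15. In each of those lists, 1 gene had both Dnmt3l-KO libraries above both WT libraries. Relative to the WT mean, Dnmt3l-KO replicate 1 had negative log2 medians there, -0.37 for the fibroblast markers and -0.11 for the cytokine list. Only replicate 2 had positive ones, 0.55 and 0.09. For processing and decay, both libraries had positive medians, 0.157 and 0.164 by replicate number. Khsrp, which binds AU-rich elements, had 123 and 125 CPM in the WT replicates and 155 and 158 CPM in those of Dnmt3l-KO (0.34 ± 0.09, log2 with SE). Zfp36, or tristetraprolin, had 15.1 and 14.9 CPM in the WT replicates and 18.6 and 18.5 CPM in those of Dnmt3l-KO (0.31 ± 0.10), and its relative Zfp36l1 had 22.1 and 24.3 CPM in the WT replicates and 29.1 and 44.1 CPM in those of Dnmt3l-KO (0.66 ± 0.22). These 3 were at an unadjusted p under 0.05, where 2.34% of all genes were higher at that level. The RNase Zc3h12a had 3.82 and 3.59 CPM in the WT replicates and 4.69 and 4.54 CPM in those of Dnmt3l-KO (0.32 ± 0.19). Each of these 4 genes had an adjusted p of 0.999 in edgeR, and message decay itself was not measured.

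**Figure D5:**
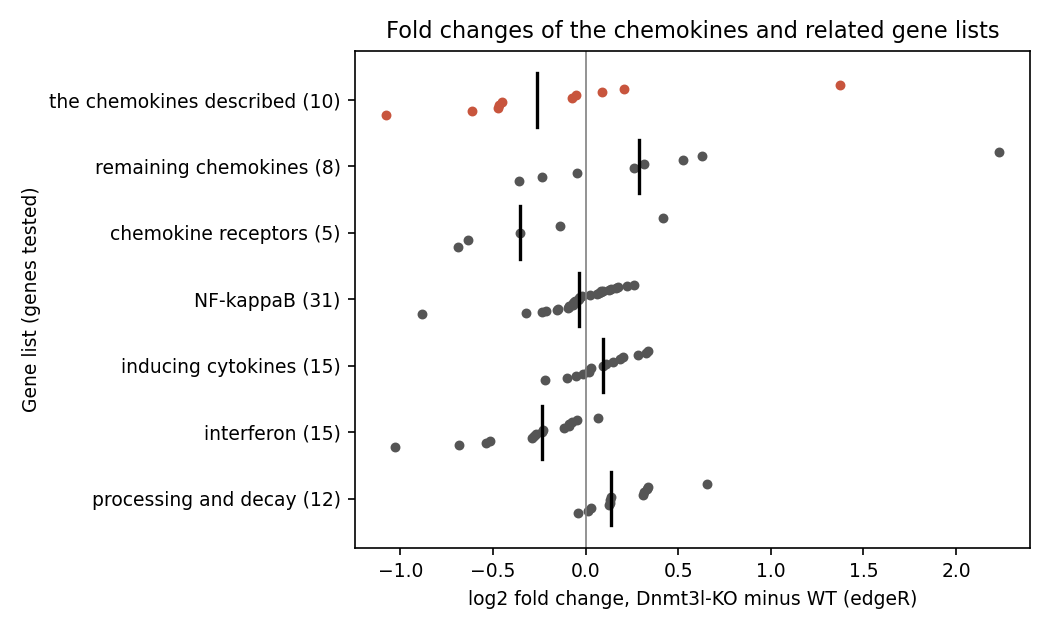
Log2 fold changes, Dnmt3l-KO minus WT, of the tested genes of each list (points) and their median (black bar), with the number tested in brackets. The medians run from -0.35 for the receptors to 0.29 for the remaining chemokines, and no gene shown passed the test.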

How the data were processed

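RNA depleted of ribosomal RNA was sequenced from 4 MEF libraries. The deposited table holds, per the file headers, estimated counts and FPKM values of 116415 RefSeq transcripts, and the authors' comparison with its mean signal, a log2 fold change, a test score and p-values. The submitters' processing notes name TopHat2 2.0.12, Cufflinks 2.2.1, eXpress 1.4.1, DESeq2 1.8.0 and mm10, without their roles. The deposited estimated counts were whole numbers and were used as such.

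Counts and FPKM were summed per symbol. The 14760 symbols kept by the expression filter of edgeR, all 10 chemokine genes among them, were tested with edgeR 4.0.16 (R 4.3.3; quasi-likelihood F-test, robust, TMM), Benjamini-Hochberg adjustment over all of them and a threshold of 0.05. CPM uses the TMM library sizes. The SE was derived from the F statistic. Alternatives were other scalings and filters, DESeq2 1.42.0, limma 3.58.1 on log2(FPKM + 1) and log2(FPKM + 0.1), transcripts as features, a replicate block and each library left out. The chemokine genes and the gene lists were chosen with earlier results of these data known. Named were all 10 genes, their known receptors, Adam10, Adam17, Dpp4, Dnmt3l and up to 4 genes of each related list with the smallest p; others are said to be named later. Older RefSeq symbols were matched (Emr1 for Adgre1). Positions are RefSeq's on GRCm38, the build of mm10. The floor of 3 counts covers counting error only, while the SE also takes in the spread between libraries.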

Additional observations from a re-analysis of the deposited data

How the results depend on the processing

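In all 13 other settings, 0 chemokine genes were called, and the lowest adjusted p of any in them was 0.150. Of 118 recomputed fold changes of whole genes 108 kept their sign. Those that turned were Cxcl12 in limma with FPKM pseudocounts of 1 (0.031) and 0.1 (0.032), without WT replicate 1 (0.28) or Dnmt3l-KO replicate 2 (0.015), Ccl9 without WT replicate 2 (-0.057) or Dnmt3l-KO replicate 1 (-0.17), Cxcl5 without the same libraries (1.11 and 0.75), and Cxcl1 and Cx3cl1 without Dnmt3l-KO replicate 2 (-0.46 and -0.44). With transcripts as features, the coding Cxcl16 transcript (0.10) and 1 Ccl20 transcript (0.44) also differed in sign from their genes, and the Cxcl12 transcripts from each other. The cause was not tested. The median over the 10 genes ran from -0.56 to -0.14 with a library left out. Over those same omissions the fold changes ran from -0.32 to 0.28 for Cxcl12, -0.17 to 0.30 for Ccl9, -2.21 to 1.11 for Cxcl5, -0.46 to 2.16 for Cxcl1 and -0.44 to 0.66 for Cx3cl1. The genes called among all were 3 in the main test, 8 with no filter, 32 in DESeq2, 6 and 9 in limma with pseudocounts of 1 and 0.1, 1 with transcripts as features, and 2 to 6 with a library left out, where a lone library is assumed to vary like the pair. With the replicate block, 4 genes and 0 chemokine genes were called, at a chemokine median of -0.44. The replicate differences of the genotypes had a correlation of 0.15 across 14760 genes, which are not independent, and the labels give the samples only a shared number. Depth limits Ccl20, Cxcl10, Cxcl1 and Ccl9, which had 15 to 79 counts in each library, apart from 238 for Cxcl1 in Dnmt3l-KO replicate 2.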

Other observations

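Of the 15 tested genes of the cytokine list, Osmr, Il6st, Il1r1, Il1rap, Tnfrsf1a, Tnfrsf1b, Il17rc and Ifnar2 were highest in Dnmt3l-KO replicate 2. That library also had the most Cxcl1 and Cxcl5, and the highest summed level of the fibroblast markers, at 16083 CPM. The share of all genes highest in it was not counted, so whether the cytokine list stands out there cannot be told. In 7 of the 15 tested, replicate 2 was above replicate 1 in both genotypes, against 27.6% of all genes. In 3 of the 15 it was below in both, against 26.9% of all genes. The examples here were named after their values had been seen. Osmr, the receptor of oncostatin M, had 75.5 and 88.4 CPM in the WT replicates and 54.5 and 127 CPM in those of Dnmt3l-KO. Il6st, the shared signalling chain gp130, had 222 and 239.8 CPM in the WT replicates and 182 and 380.4 CPM in those of Dnmt3l-KO, and the interleukin 1 receptor Il1r1 had 16.3 and 22.1 CPM in the WT replicates and 15.8 and 32.4 CPM in those of Dnmt3l-KO. In these 3 genes replicate 2 was above replicate 1 in both genotypes. The co-receptor Il1rap was also highest in Dnmt3l-KO replicate 2 but did not keep that order in WT, at 18.3 and 18.2 CPM in the WT replicates and 15.7 and 19.5 CPM in those of Dnmt3l-KO. Il6, itself a common product of stimulated fibroblasts, and Csf1 were not highest in that library, Il6 at 1.74 and 1.27 CPM in the WT replicates and 1.64 and 1.41 CPM in those of Dnmt3l-KO. None of the genes named here passed between the genotypes in edgeR (adjusted p = 0.999 for each).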
